A study of Mus musculus with 21 samples.

Results

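Immediate-early genes code for transcription factors whose RNA rises within minutes of a signal, without new protein synthesis, and falls again soon after. Fos, Fosb, Jun and Junb form the AP-1 dimers, Egr1 and Egr2 are zinc-finger factors, Atf3 is a stress-induced relative of AP-1, and Nr4a1, Nr4a2 and Nr4a3 are orphan nuclear receptors. In the heart these genes are known to respond to stretch, adrenergic and calcium signals and to ischaemia, and their RNA can also change while a tissue is being collected. The 10 genes were taken by their Ensembl identifiers from the 55450 rows of the counts table, and each symbol matched 1 row.

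RNA was sequenced from the left ventricle (LV) of 21 male 129S6/SvEv mice aged 12 weeks. R403Q mice carried the label Myh6+/R404Q (R403Q), which is a heterozygous change in the gene of the main myosin heavy chain of the adult mouse ventricle and a model of hypertrophic cardiomyopathy, and WT mice were wild-type littermates. They ate a control diet (CD) or the same diet with 0.15 mg/g empagliflozin (EMPA), an inhibitor of the sodium-glucose cotransporter of the kidney. On control diet there were 5 WT mice (WT-CD) and 7 R403Q mice (R403Q-CD), and on the empagliflozin diet 4 R403Q mice (R403Q-EMPA) and 5 WT mice (WT-EMPA). The study's protocol starts the diets at 9 to 10 weeks of age and takes hearts for RNA after 2 weeks, which is the length that leads to an age of 12 weeks, while the treatment text of the labels gives the 16 weeks of the whole study. The mutation is present in all cells, and in all 4 groups the tissue is whole LV, in which fewer cells of a type and less RNA per cell cannot be told apart. The labels give a cage number for every mouse. Cages held 1 diet each, 4 of them the 12 CD mice and 3 the 9 EMPA mice, so that diet and cage cannot be told apart.

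Totals ran from 23491535 to 43539684 counts per mouse. Values are given in CPM, the count divided by the library size after TMM scaling and set to a common total, which are comparable between mice and not between genes. A count of 3 was worth between 0.0689 and 0.128 CPM. Myh6 averaged between 32934 CPM in R403Q-CD and 45221 CPM in WT-EMPA, and a gene count cannot show the R403Q base change. R403Q-CD replicate 2 stood apart from the other mice. Its 8 fibroblast markers summed to 6001 CPM, against 1076 to 3032 CPM in the others, and its 8 cardiomyocyte markers to 66781 CPM, the lowest of the 21 mice. R403Q-CD replicate 5 was next to it in both sums, with 3032 and 85011 CPM. Values without one or both of these mice are given beside the results that they move most. None of the 74 markers of 11 cell types was at 0 in all mice, and the 5 atrial markers summed to at most 636 CPM, again in R403Q-CD replicate 2. For depth, log2 total counts and the mean z score of the 10 genes had a Pearson's r of 0.33 over 21 mice, given as a description.

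The control regions of these genes are shown first, because the genes are known to share inputs from cyclic AMP and calcium through the cAMP response element (CRE), and from serum response factor through the CArG box. The sequences are the bases before the RefSeq transcription start in GRCm38.p6, 5′ to 3′ on the gene's strand, and stop where an annotated exon begins. Capitals mark the CRE core TGACG on either strand, the CArG box and the TATA box TATAAA. The full CRE (TGACGTCA) was found in no member window, and its 5-base core was searched after that was seen.

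Fos, chr12:85473640-85473889, plus strand: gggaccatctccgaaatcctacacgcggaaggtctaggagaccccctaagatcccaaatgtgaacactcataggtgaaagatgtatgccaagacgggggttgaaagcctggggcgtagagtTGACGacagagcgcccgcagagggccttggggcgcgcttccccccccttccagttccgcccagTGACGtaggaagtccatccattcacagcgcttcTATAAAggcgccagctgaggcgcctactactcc
Junb, chr8:84978749-84978998, minus strand: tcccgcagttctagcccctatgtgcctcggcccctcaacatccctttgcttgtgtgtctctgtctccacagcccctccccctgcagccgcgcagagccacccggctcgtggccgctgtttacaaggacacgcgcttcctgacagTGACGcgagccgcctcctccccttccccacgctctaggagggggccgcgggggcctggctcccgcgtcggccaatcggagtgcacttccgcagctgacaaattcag
Egr2, chr10:67537619-67537868, plus strand: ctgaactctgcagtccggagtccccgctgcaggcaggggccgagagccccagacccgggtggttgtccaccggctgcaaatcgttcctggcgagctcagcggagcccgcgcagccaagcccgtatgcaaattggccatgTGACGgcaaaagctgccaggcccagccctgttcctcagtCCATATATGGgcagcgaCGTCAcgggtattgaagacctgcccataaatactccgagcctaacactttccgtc
Nr4a1, chr15:101266596-101266845, plus strand: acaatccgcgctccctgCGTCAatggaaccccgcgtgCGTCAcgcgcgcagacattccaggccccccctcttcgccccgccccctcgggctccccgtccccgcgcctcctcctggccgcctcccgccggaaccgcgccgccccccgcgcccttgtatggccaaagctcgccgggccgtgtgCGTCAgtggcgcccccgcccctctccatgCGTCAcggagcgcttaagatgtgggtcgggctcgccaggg
Nr4a3, chr4:48045055-48045152, plus strand: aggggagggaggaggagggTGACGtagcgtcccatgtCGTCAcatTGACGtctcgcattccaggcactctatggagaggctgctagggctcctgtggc

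Over the 250 bases before the start, the CRE core stood in 8 of the 9 members with a RefSeq window, Jun being the exception. It stood in 17.8% of the 32851 windows of all genes, a share of windows where that of the members counts genes. The only core of Atf3, at 7 bases before the start, lies in an annotated exon. Nr4a1, Nr4a2 and Nr4a3 held 4 cores each, of which 1 of Nr4a3 lies beyond the printed bases, and Fos held 2, at 129 and 66 bases before the start. Egr2 has 5 windows, of which 3 overlap and held the same 2 cores. Among these 9 members the CArG box occurred in 4 windows of Egr2 (1.47% of all windows) and the TATA box in Fos (7.59%), and Egr1 was not searched. The 3 overlapping windows of Egr2 held the same CArG box. The AP-1 site (TGACTCA, 4.46%), the EGR site (GCGTGGGCG, 0.536%) and the NGFI-B response element (AAAGGTCA, 1.34%), to which NR4A monomers bind, were searched on both strands and found in no window of these 9. A match is a string of letters and not a measured binding site, and bases farther from the start were not searched.

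All 10 genes were expressed above the filter on low counts and all were tested. Levels between genes were compared per length, as CPM per kilobase of annotated exon averaged over the 21 mice. Jun, a core AP-1 subunit, was the highest at 32.2 ± 5.76 (SD, n = 21), followed by Junb at 9.57 ± 2.92 and Nr4a1 at 8.12 ± 4.89. Egr1 (5.32 ± 4.79), Fos (4.11 ± 3.85) and Atf3 (3.55 ± 1.69) came next, then Nr4a3 (1.75 ± 0.924). Nr4a2 (0.328 ± 0.120), Egr2 (0.318 ± 0.672) and Fosb (0.248 ± 0.305) were the lowest. The mean of Egr2 was raised by R403Q-CD replicate 2, which had 10.9 CPM against 2.28 CPM in the next mouse. Jun exceeded Junb in 21 of 21 mice, Atf3 exceeded Nr4a3 in 21 of 21 and Nr4a3 exceeded Nr4a2 in 21 of 21. The neighbours Fos and Atf3 changed places, with Fos higher in 8 of 21 mice, and so did Egr2 and Fosb, with Egr2 higher in 11 of 21.

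**Figure D1:**
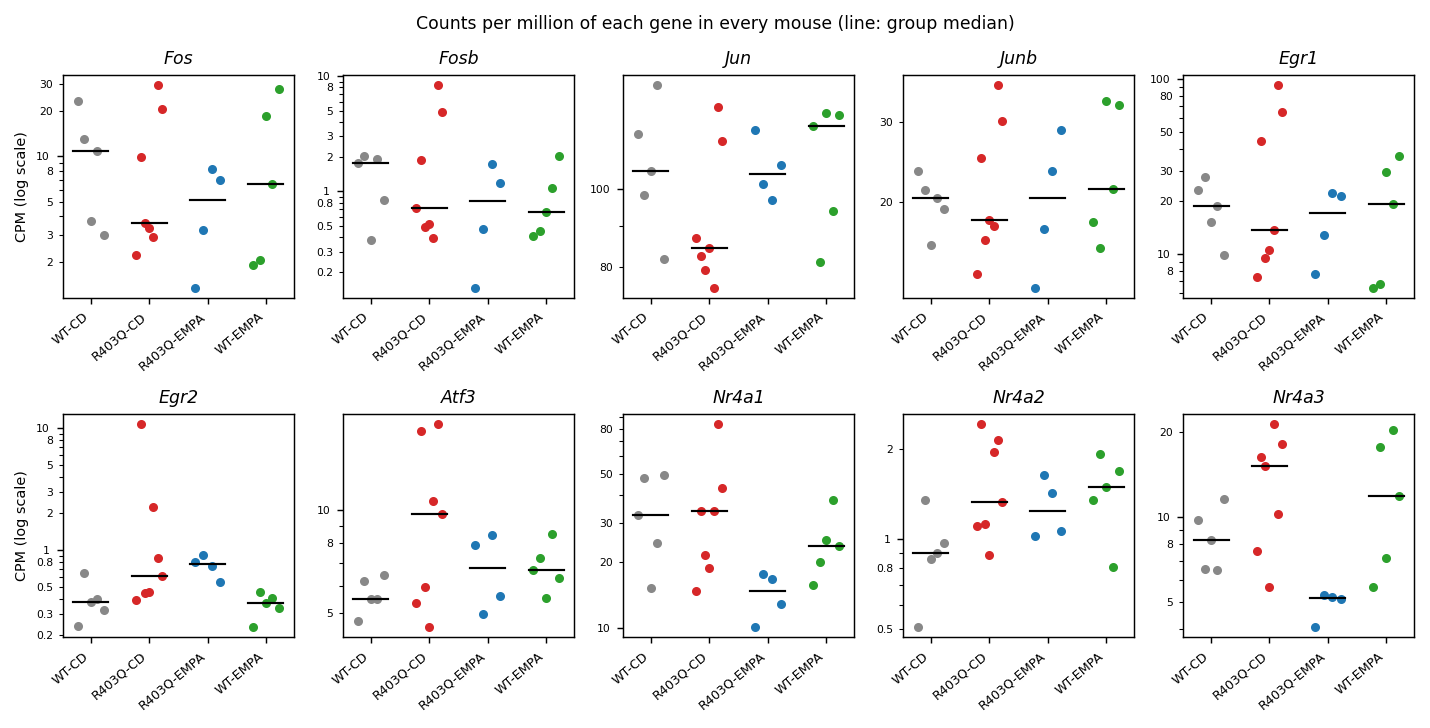
CPM of the 10 genes (log scale, a separate axis for each gene) in each of the 21 mice, by group, with a line at the group median. The 4 R403Q-EMPA mice lie below every other mouse for Nr4a3, and 2 R403Q-CD mice lie above every other mouse for Egr2.

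Most members varied more between mice of 1 group than other genes did. The SD of log2 CPM within groups was 1.45 for Fos, 1.33 for Fosb, 1.13 for Egr1 and 1.04 for Egr2, against a median of 0.20 over the 17309 tested genes. These 4 stood at or above percentile 99.1 of all tested genes. Nr4a1 (SD 0.67), Nr4a3 (0.60), Atf3 (0.51), Nr4a2 (0.47) and Junb (0.45) followed, and Jun was the steadiest member at 0.26, percentile 61.0. The groups held a smaller share of this variation than of a typical gene for some members. Between-group differences made up 6.45% of the sum of squares of log2 CPM for Fos, 5.31% for Egr1 and 4.60% for Junb, against a median of 24.6% over all tested genes, and 44.6% for Nr4a3, the highest of the 10.

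Fos, the classic inducible AP-1 subunit, varied widely within every group. Its values in WT-CD were 23.3, 13.1, 3.75, 10.7 and 3.02 CPM. In R403Q-CD the lowest, median and highest mice had 2.21, 3.63 and 29.8 CPM. The 4 R403Q-EMPA mice had 1.35, 3.27, 8.25 and 6.92 CPM and the WT-EMPA mice 1.90, 2.06, 18.6, 6.53 and 27.9 CPM. The groups overlapped throughout, and each held mice with several-fold different levels. Fosb, a Fos relative with the same partners, spanned 0.379 to 2.05 CPM in WT-CD, 0.390 to 8.46 in R403Q-CD, 0.146 to 1.72 in R403Q-EMPA and 0.410 to 2.05 in WT-EMPA. Egr1, which is induced through the same serum and MAP kinase inputs, ranged from 9.85 to 27.6 CPM in WT-CD and from 7.33 to 93.3 CPM in R403Q-CD, with 7.69 to 22.4 CPM in R403Q-EMPA and 6.41 to 36.2 CPM in WT-EMPA. R403Q-CD replicates 6, 7 and 2 held the 3 highest Egr1 levels of all mice (93.3, 65.3 and 44.2 CPM), while the other 4 mice of that group lay between 7.33 and 13.7 CPM. Junb ranged from 13.0 to 36.2 CPM and Jun from 75.4 to 135 CPM over the 21 mice, with overlapping groups.

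None of the 10 members passed the threshold, an adjusted p under 0.05 in edgeR's quasi-likelihood test over all 17309 genes, in R403Q-CD against WT-CD, where 1.44% of all tested genes passed. Of the 10, 8 had a positive log2 fold change and Fos and Jun a negative one, with a median of 0.71 against 0.01 over all genes. At an unadjusted p under 0.05 there were 4 members (Egr2, Atf3, Nr4a2 and Nr4a3) against 20.9% of all genes. With the 2 groups compared alone the same 4 members did so, beside 18%, and with cage as a factor Egr2, Atf3 and Nr4a2 (3 members), beside 22.9%. DESeq2, run as an alternative, passed Egr2 and Atf3, beside 5.6% of all genes. Limma on the deposited log2 values passed 0 members, beside 282 of 17309 genes. The share of all called genes that were higher in R403Q-CD was 61.2%, and 77.8% with library size alone as the scaling, which moved the median of all genes to 0.08. With that scaling the log2 fold change of Fos turned from -0.05 to 0.02. Markers of other cell types were also higher in this comparison: 8 of 8 of fibroblasts (median log2 fold change 0.93, none past the threshold), 7 of 8 of macrophages (0.55, with Adgre1 and Csf1r past it) and 4 of 4 tested atrial markers (1.05, none past it). Neutrophil markers were higher in 5 of 5 tested (0.63, and 0.82 without R403Q-CD replicates 2 and 5), endothelial markers in 8 of 8 (0.17) and red blood cell markers in 5 of 5 (0.25), none past the threshold. Without R403Q-CD replicates 2 and 5 the fibroblast, macrophage and atrial medians were 0.13, 0.35 and -0.52, with 7 of 8, 8 of 8 and 1 of 4 markers higher and none past the threshold. The part of these cell types in the members' levels was not tested.

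Egr2, an EGR factor best known from Schwann cells and lymphocytes, had the largest difference, a log2 fold change of 2.53 ± 0.74 (SE, n = 7 against 5) with an adjusted p of 0.0725 in edgeR. Its values in WT-CD were 0.237, 0.649, 0.379, 0.399 and 0.324 CPM. In R403Q-CD the lowest, median and highest were 0.389, 0.618 and 10.9 CPM, and the second highest was 2.28 CPM. The highest mouse was replicate 2 and the second highest replicate 5, which are the mice with the most fibroblast marker RNA. Of the other 5 R403Q-CD mice, replicate 6 at 0.860 CPM lay above all WT-CD mice and 4 overlapped them. Without replicate 2 the log2 fold change was 1.07 (adjusted p 0.180 in edgeR), and without both mice 0.47 (adjusted p 0.506). Leaving out R403Q-CD replicate 1 or 3 instead brought the adjusted p to 0.0477 or 0.0344, and DESeq2 gave 0.0164. Over the 8 alternatives the adjusted p ran from 0.0164 to 0.506. The part of the marker sums in the level of Egr2 was not tested.

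Atf3, a factor induced by cell stress, had 17.0, 10.6, 17.9 and 9.76 CPM in R403Q-CD replicates 2, 5, 6 and 7, above the WT-CD range of 4.72 to 6.46 CPM, while replicates 1, 3 and 4 had 5.32, 5.94 and 4.54 CPM. Its log2 fold change was 0.85 ± 0.28 with an adjusted p of 0.102 in edgeR, 0.0414 in DESeq2 and 0.0480 in edgeR without R403Q-CD replicate 3. Nr4a2, the receptor best known from dopaminergic neurons, averaged 1.56 ± 0.596 CPM in R403Q-CD (SD, n = 7) and 0.918 ± 0.30 CPM in WT-CD (n = 5), with a log2 fold change of 0.77 ± 0.27 and an adjusted p of 0.128 in edgeR. Without R403Q-CD replicates 2 and 5 the log2 fold change was 0.51 for Nr4a2 (adjusted p 0.444 in edgeR) and 0.62 for Atf3 (adjusted p 0.342). Atf3 was then the 1 member with an unadjusted p under 0.05, beside 2235 of 17159 genes. Within the 4 CD cages, each of which held both genotypes, the R403Q mice averaged higher than the WT mice in 4 of 4 cages for Egr2 and for Nr4a2, in 3 of 4 for Atf3 and Nr4a3, in 2 of 4 for Fos, Fosb, Junb, Egr1 and Nr4a1, and in 1 of 4 for Jun. With cage as a factor, the log2 fold change was 2.41 for Egr2, 0.74 for Atf3 and 0.82 for Nr4a2 (adjusted p 0.0878, 0.131 and 0.0946 in edgeR).

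**Figure D2:**
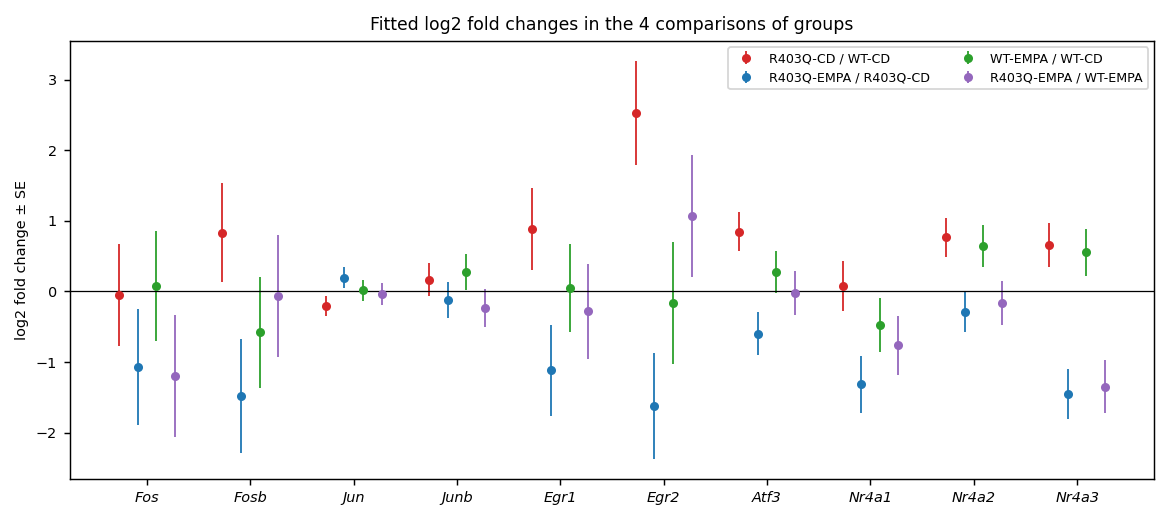
Log2 fold changes of the 10 genes with their SE from the edgeR fit of all 4 groups, for the 4 comparisons of groups. In R403Q-EMPA against R403Q-CD 9 of 10 points lie below 0, and the bar of Nr4a3 at -1.45 ± 0.36 is among the farthest from it.

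In R403Q-EMPA against R403Q-CD the members were mostly lower, and none passed the threshold. Of the 10, 9 had a negative log2 fold change, with a median of -1.09 against 0.00 over all genes, and Jun alone was positive at 0.19 ± 0.15. edgeR passed 0 members, beside 0.0116% of all tested genes. At an unadjusted p under 0.05 there were 3 members (Nr4a3, Nr4a1 and Egr2) against 13.4% of all genes. DESeq2 passed Nr4a3 (adjusted p 0.0165), beside 0.938% of all genes. Markers of other cell types were also lower in this comparison, none past the threshold: 7 of 7 of smooth muscle cells and pericytes (median log2 fold change -0.71), 7 of 8 of fibroblasts (-0.49) and 4 of 4 tested atrial markers (-3.21). Without R403Q-CD replicates 2 and 5 these medians were -0.26, 0.14 and -1.83, with 7 of 7, 1 of 8 and 3 of 4 markers lower. Macrophage and endothelial markers were higher in 8 of 8 each (0.07 and 0.12), and neutrophil and red blood cell markers in 5 of 5 each (1.07 and 0.63), none past the threshold. The part of these cell types in the members' levels was not tested.

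Nr4a3, also called NOR-1, was the member with the clearest pattern. The R403Q-EMPA mice had 4.08, 5.29, 5.19 and 5.14 CPM. In R403Q-CD the lowest, median and highest were 5.64, 15.2 and 21.3 CPM, in WT-CD the values were 9.74, 6.57, 8.29, 6.49 and 11.5 CPM, and in WT-EMPA 5.65, 17.7, 7.17, 20.3 and 11.9 CPM. Every R403Q-EMPA mouse thus lay below every mouse of the other 3 groups, and Nr4a3 was the only member of which this held. Over all tested genes 0.104% lay below in this way, and 0.664%, 3.41% and 3.50% lay below every mouse of R403Q-CD, of WT-EMPA and of WT-CD. The gap to the lowest mouse of the others was small, 5.29 against 5.64 CPM.

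The log2 fold change of Nr4a3 against R403Q-CD was -1.45 ± 0.36 (SE, n = 4 against 7), a level 2.74-fold lower, with an adjusted p of 0.120 in edgeR. Over the 7 alternatives the adjusted p ran from 0.0165 to 0.294 and the log2 fold change from -1.49 to -1.08. Leaving out each mouse in turn gave log2 fold changes from -1.59 to -1.32, none past the threshold. Against WT-EMPA it was -1.35 ± 0.37 (n = 4 against 5), with an adjusted p of 0.122 in edgeR, 0.0377 in DESeq2 (0.0377 to 0.160 over the 7 alternatives) and 0.0492 in edgeR without R403Q-CD replicates 2 and 5. Those mice belong to neither group, and leaving them out also raised the calls over all genes in this comparison from 10 to 330, with 17159 genes tested. In the 2 EMPA cages with both genotypes the R403Q mice less the WT mouse differed by -2.11 and -1.2 in mean log2 CPM, and with cage as a factor the log2 fold change was -1.68 (adjusted p 0.129 in edgeR).

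Nr4a1, also called NUR77, had the next smallest p. Its values in R403Q-EMPA were 10.1, 17.6, 16.6 and 12.9 CPM. In R403Q-CD they ran from 14.8 through a median of 33.9 to 83.9 CPM, so that 2 R403Q-EMPA mice lay below the whole of that group. WT-CD had 32.6, 47.9, 15.2, 24.3 and 49.1 CPM and WT-EMPA 15.6, 20.0, 25.0, 38.1 and 23.4 CPM. The log2 fold change of R403Q-EMPA against R403Q-CD was -1.32 ± 0.40, a level 2.49-fold lower, with an adjusted p of 0.186 in edgeR, and it ran from -1.45 to -0.95 with each mouse left out. Nr4a2 was at -0.28 ± 0.29 (adjusted p 0.702 in edgeR).

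Of the other members in R403Q-EMPA against R403Q-CD, Egr2, Fosb, Egr1 and Fos had wide errors. Their log2 fold changes were -1.62 ± 0.75 for Egr2, -1.48 ± 0.80 for Fosb, -1.12 ± 0.64 for Egr1 and -1.07 ± 0.82 for Fos. The log2 fold change was -0.60 ± 0.30 for Atf3 and -0.13 ± 0.26 for Junb. Without R403Q-CD replicate 6 it was -0.74 for Fosb, -0.64 for Egr1, -0.52 for Fos and -0.40 for Atf3. For Egr2 it was -0.17 without R403Q-CD replicate 2 and 0.43 without replicates 2 and 5. The R403Q-EMPA mice had 0.802, 0.914, 0.738 and 0.552 CPM of Egr2 and lay above all 5 WT-EMPA mice (0.234 to 0.452 CPM), as 3.35% of all tested genes did, with a log2 fold change of 1.07 ± 0.86 and an adjusted p of 0.580 in edgeR.

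In WT-EMPA against WT-CD none of the members passed edgeR's threshold, beside 0.0289% of all tested genes. None passed in DESeq2, beside 0.737% of all genes, or in limma, beside 4 of 17309 genes. The largest difference was Nr4a2, at 1.45 ± 0.420 CPM against 0.918 ± 0.30 CPM (SD, n = 5 each) and a log2 fold change of 0.65 ± 0.29. It was the 1 member with an unadjusted p under 0.05, beside 11% of all genes (adjusted p 0.429 in edgeR). Nr4a3 was 0.56 ± 0.33 and Nr4a1 -0.47 ± 0.38, and the median of the 10 was 0.07. Neutrophil markers were higher in WT-EMPA in 5 of 5 tested (median log2 fold change 2.25) and red blood cell markers in 5 of 5 (0.63), while smooth muscle and pericyte markers were lower in 6 of 7 (-0.37), fibroblast markers in 6 of 8 (-0.26), adipocyte markers in 5 of 5 (-0.40) and atrial markers in 3 of 4 (-1.41). None passed the threshold, and their part in the members' levels was not tested. In R403Q-EMPA against WT-EMPA 0 members passed in edgeR, beside 0.0578% of all genes, and DESeq2 passed Nr4a3, beside 1.77%. At an unadjusted p under 0.05 there was 1 member, Nr4a3, beside 14.7% of all genes. With the 2 groups compared alone there were 3 (Nr4a1, Nr4a3 and Egr2) beside 19%, and with cage as a factor 5 (Fosb, Fos, Nr4a1, Nr4a3 and Egr2) beside 12.5%, none of them past the threshold.

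In the 2 EMPA cages with both genotypes, each with 2 R403Q mice and 1 WT mouse, the R403Q mice averaged lower in both for Fos, Fosb, Junb, Egr1, Nr4a1 and Nr4a3, higher in both for Egr2, and in 1 of 2 for Jun, Atf3 and Nr4a2. The difference in mean log2 CPM was -1.61 and -1.88 for Fos, -1.77 and -0.50 for Fosb, and -1.51 and -0.68 for Nr4a1. With cage as a factor the log2 fold change was -1.70 for Fos, -1.01 for Fosb, -1.08 for Nr4a1 and 1.02 for Egr2 (adjusted p 0.360, 0.346, 0.138 and 0.313 in edgeR). Markers higher in R403Q-EMPA than in WT-EMPA were 8 of 8 of fibroblasts (median log2 fold change 0.66), macrophages (0.61) and endothelial cells (0.17), 5 of 5 tested of adipocytes (0.78) and 5 of 5 of red blood cells (0.26), while 4 of 5 tested neutrophil markers (-0.52) and 3 of 4 atrial markers (-1.02) were lower, none past the threshold. The part of these cell types in the members' levels was not tested.

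Whether the EMPA diet acted differently in the genotypes was tested as the interaction, the log2 fold change of R403Q-EMPA against R403Q-CD less that of WT-EMPA against WT-CD. It was -2.01 ± 0.49 for Nr4a3, with an unadjusted p of 0.000450 and an adjusted p of 0.999 in edgeR, and 0.701 in DESeq2. No member and no gene passed, that is 0% of the tested genes in edgeR. The members with an unadjusted p under 0.05 were Nr4a3 and Nr4a2 (-0.93 ± 0.41), that is 2 of 10 beside 3.28% of all genes. Without R403Q-CD replicates 2 and 5 Nr4a3 was the only one, beside 666 of 17159 genes. Over the 5 alternatives the interaction of Nr4a2 ran from -0.96 to -0.42. Neutrophil markers had a negative interaction in 5 of 5 tested (median -1.18) and atrial markers in 4 of 4 (-1.80), none past the threshold, and their part in these values was not tested. In the test of any difference among the 4 groups Egr2 (adjusted p 0.0276) and Nr4a3 (0.0341) passed in edgeR, 2 of 10 members beside 11.8% of all genes, and the same genes passed in DESeq2, beside 19.8%. Of the markers, 7 of 8 of macrophages, 4 of 5 of neutrophils, 4 of 8 of endothelial cells and 3 of 5 of red blood cells passed in that test in edgeR, and their part in the levels of the members was not tested.

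These calls depended on single mice. Egr2 was lost in edgeR without R403Q-CD replicate 2 (adjusted p 0.0752), WT-EMPA replicate 1 (0.0553) or WT-EMPA replicate 5 (0.0553). Nr4a3 was lost without R403Q-CD replicate 5 (0.0569) or 7 (0.0504), WT-EMPA replicate 5 (0.0588) or R403Q-EMPA replicate 1 (0.0737), 2 (0.0606), 3 (0.0674) or 4 (0.0597). Without both R403Q-CD mice that had the most fibroblast marker RNA, Egr2 had 0.0631 and Nr4a3 0.0566. Limma on the deposited log2 values passed neither, with an adjusted p of 0.282 for Egr2 and 0.0550 for Nr4a3.

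**Figure D3:**
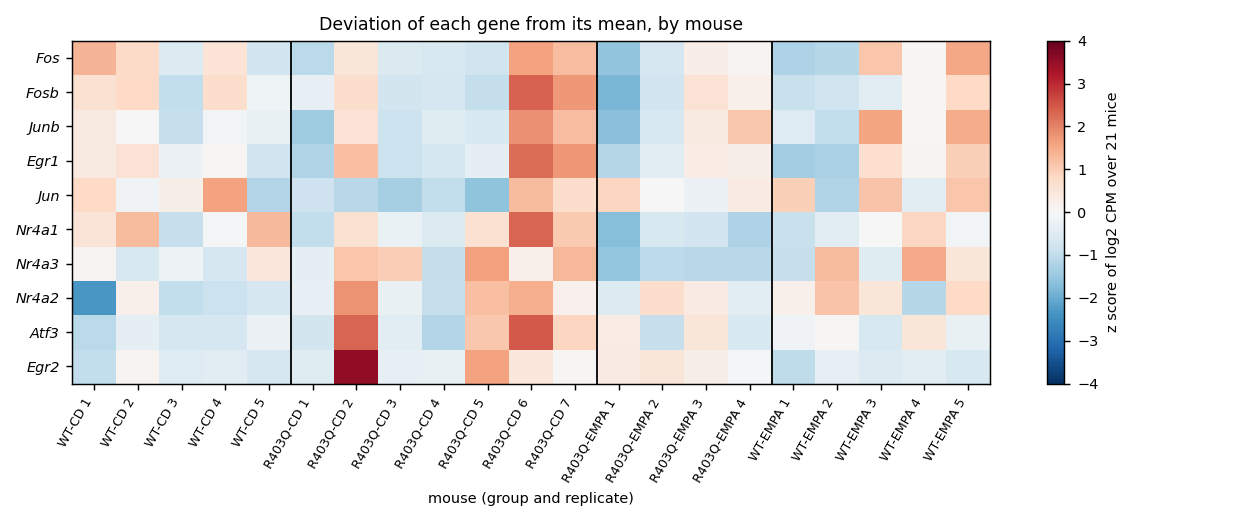
Z score of log2 CPM over the 21 mice for each gene (rows) and mouse (columns, by group and replicate, with lines between groups). Fos, Fosb, Junb and Egr1 share most of their high and low mice, with R403Q-CD replicates 6 and 7 high in all of them, while WT-EMPA replicate 3 is at 1.12, 1.56 and 0.66 in Fos, Junb and Egr1 and at -0.42 in Fosb.

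Many members varied together from mouse to mouse. Of the 45 pairs, 17 had a Pearson's r of log2 CPM over the 21 mice that passed a permutation test with Benjamini-Hochberg adjustment over the pairs (adjusted p under 0.05), and all 17 were positive. By Spearman's rho 9 pairs passed. The median r was 0.34, with a range from -0.44 for Jun and Nr4a3 to 0.91 for Fos and Egr1.

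Fos, Fosb, Junb and Egr1, grouped after their correlations were seen, had the tightest relation. Their 6 pairs had r between 0.78 and 0.91 and rho between 0.78 and 0.93, and all 6 passed by both measures. The adjusted permutation p was 9e-05 for 5 of them, from an unadjusted p of 1e-05, the smallest that 100000 permutations can give. Without the 2 mice farthest from the median, r stayed between 0.69 and 0.89. It was 0.85 to 0.94 for deviations from the group means and 0.80 to 0.99 for deviations from a fit of cage and genotype. In the 12 CD mice alone r was 0.88 to 0.95 (6 of 6 pairs passed), and in the 9 EMPA mice alone 0.79 to 0.96 (3 of 6). Without R403Q-CD replicates 2 and 5 it was 0.77 to 0.92 and all 6 passed.

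Nr4a1 was correlated with Fosb (r = 0.70), Egr1 (0.64), Fos (0.59), Junb (0.53) and Atf3 (0.53), all past the threshold. Nr4a3 with the first 4 of these had r between 0.15 and 0.23, none past it. Nr4a1 and Nr4a3 had r = 0.56 and rho = 0.63 (adjusted permutation p 0.0283 and 0.0174), with r = 0.31 in the CD mice and 0.81 in the EMPA mice alone. For deviations from group means it was 0.41, and without R403Q-CD replicates 2 and 5 it was 0.54 (adjusted permutation p 0.0544). Nr4a2 passed with neither of its family members (r = 0.22 with Nr4a1 and 0.25 with Nr4a3). Egr2, Atf3 and Nr4a2 had r of 0.62 to 0.70 with each other, and all 3 pairs passed by Pearson's r and 0 by Spearman's rho. Without the 2 farthest mice r was 0.43 to 0.48, it was 0.57 to 0.65 for deviations from the group means, 0.44 to 0.59 for deviations from a fit of cage and genotype, 0.78 to 0.89 in the CD mice and between -0.41 and -0.01 in the EMPA mice, and without R403Q-CD replicates 2 and 5 it was 0.46 to 0.50, with 0 pairs passing.

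**Figure D4:**
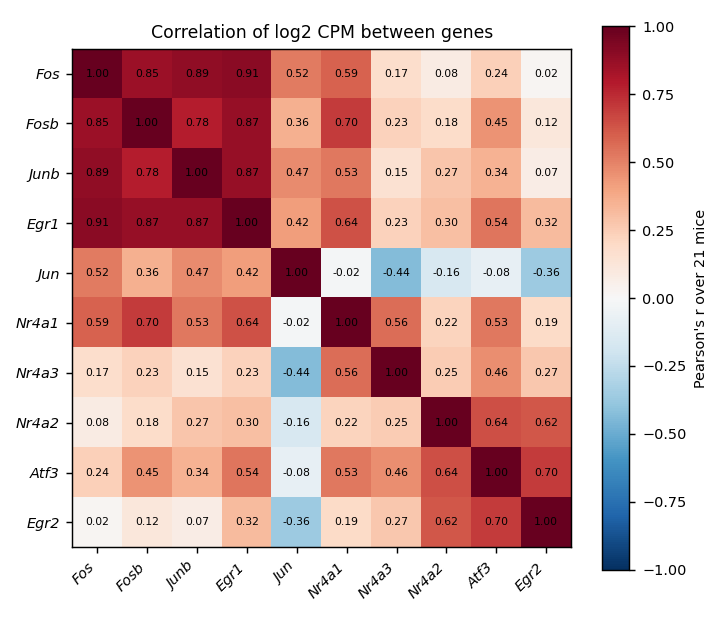
Pearson's r of log2 CPM over 21 mice for each pair of the 10 genes. The block of Fos, Fosb, Junb and Egr1 lies between 0.78 and 0.91, Jun and Nr4a3 have the lowest r at -0.44, and Egr2, Atf3 and Nr4a2 form a second block between 0.62 and 0.70.

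By the mean z score of the 10 members, R403Q-CD replicates 6, 2 and 7 were the 3 highest mice (1.61, 1.12 and 1.01) and R403Q-EMPA replicate 1 the lowest (-0.85). R403Q-CD replicate 6 was among the 3 highest mice in 8 of 10 members and the highest in 6, with 29.8 CPM of Fos, 93.3 CPM of Egr1 and 83.9 CPM of Nr4a1. R403Q-CD replicate 2 was the highest mouse for Egr2 and Nr4a2 and had 9.93 CPM of Fos. Replicates 5, 6 and 7 of R403Q-CD came from the cage labelled 68666, together with WT-CD replicate 5, whose mean z score was -0.30. Replicate 5 of R403Q-CD, from the same cage, had 2.91 CPM of Fos, so that the high Fos and Egr1 levels were not shared by all mice of the cage.

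**Figure D5:**
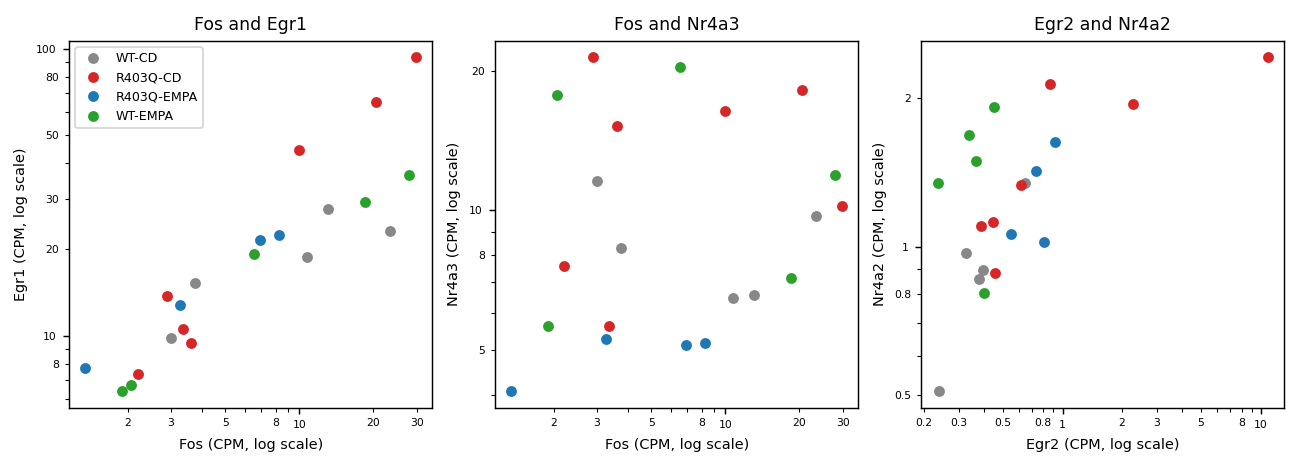
CPM of 3 gene pairs in each mouse (log scales), coloured by group. Fos and Egr1 rise together across all groups (r = 0.91), Nr4a3 is low in the 4 R403Q-EMPA mice, whose Fos ran from 1.35 to 8.25 CPM, and 2 R403Q-CD mice hold the high end of Egr2 and Nr4a2.

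Differences among cages were tested within each diet with genotype in the model. Among the 4 CD cages edgeR passed 0 members, as it passed 0% of all tested genes. At an unadjusted p under 0.05 there were 4 members (Egr2, Nr4a2, Atf3 and Nr4a1) beside 10.4% of all genes, and DESeq2 passed Egr2 (adjusted p 0.0209) beside 1.02%. Among the 3 EMPA cages edgeR again passed 0 members and 0% of all genes. There the members with an unadjusted p under 0.05 were 4 others, Fosb, Junb, Fos and Egr1, beside 8.04% of all genes, and DESeq2 passed Fosb (adjusted p 0.00375) beside 0.695%. The call was not stable: without WT-EMPA replicate 3 edgeR passed Fos and Egr1 (adjusted p 0.00170 each). Without the filter on low counts it passed 3 members among the CD cages, beside 821 of 30799 tested genes. Among the EMPA cages it then passed 6 members, beside 517 of 29603 tested genes. The adjusted p there went down to 2.08e-38 for Fos, against 0.603 with the filter.

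The genes whose log2 CPM followed the mean z score of the members most closely among the other 17299 tested genes are given as a description, since all share the same libraries. Ccn1, a secreted matricellular protein that responds to stretch and to serum, came first with r = 0.87 over 21 mice, then Otud1, a deubiquitinase (0.84), and Ier2, another immediate-early gene (0.81). Apold1 (0.81), Hdgfl3 (0.80), Agfg1 (0.79), the sphingosine phosphate receptor S1pr3 (0.77), Chst15 (0.77), Dusp1, the phosphatase that switches off MAP kinases (0.76), and the muscle protein Klhl40 (0.76) completed the first 10. The median r over all these genes was 0.00. For deviations from group means the same 10 genes had r between 0.76 and 0.90.

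The wider pathway was read from 10 lists chosen with earlier results of these data known. They held 145 genes outside the members, of which 140 were tested. In R403Q-CD against WT-CD 1 of the 140 passed in edgeR, Nppa, and in the other 3 comparisons of groups and the interaction 0 passed. Unadjusted p under 0.05 counted 40 genes in R403Q-CD against WT-CD, 51 in R403Q-EMPA against R403Q-CD, 30 in WT-EMPA against WT-CD, 23 in R403Q-EMPA against WT-EMPA and 11 in the interaction. These are 28.6%, 36.4%, 21.4%, 16.4% and 7.86% of the 140, beside 20.9%, 13.4%, 11%, 14.7% and 3.28% of all tested genes. DESeq2 passed 9, 4, 4, 2 and 0, that is 6.43%, 2.86%, 2.86%, 1.43% and 0%, beside 5.6%, 0.938%, 0.737%, 1.77% and 0% of all genes. In the test of any difference 29 of the 140 passed, 20.7% beside the 11.8% of all genes.

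Among relatives of the AP-1 subunits, 0 of 10 tested genes passed in any comparison. Batf, a partner of Jun in lymphoid cells, had the smallest p in R403Q-CD against WT-CD, with a log2 fold change of 0.89 ± 0.28 (adjusted p 0.0920 in edgeR). Of the EGR relatives and the NAB corepressors 0 of 3 passed. Egr3, the closest relative of Egr2, had 2.04 ± 0.64 (adjusted p 0.0890 in edgeR), and its highest mouse was again R403Q-CD replicate 2, at 10.97 CPM against 2.88 CPM in the next mouse. The log2 fold change of Egr3 was 0.95 without that mouse and 0.53 without replicates 2 and 5 (adjusted p 0.244 and 0.565 in edgeR). Of the 20 other inducible transcription factors and the 25 feedback regulators 0 passed between groups. Btg1, an antiproliferative factor, had the smallest p among the regulators in R403Q-EMPA against R403Q-CD, at 0.40 ± 0.08 (adjusted p 0.0599 in edgeR). Klf10 of the first list and Btg1, Zfp36l1 and Errfi1 of the second passed in the test of any difference.

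Of 15 inducible secreted and effector genes 0 passed between groups, and Plk2 and Pim1 passed in the test of any difference. Of 23 upstream kinases and factors 0 passed between groups, with 17 lower in R403Q-CD than in WT-CD, and Prkaca, the catalytic subunit of protein kinase A, at -0.32 ± 0.09 (adjusted p 0.0563 in edgeR). Of these 23, 6 passed in the test of any difference, with the smallest p for Mef2d, Elk3, Hdac5 and Mef2a. Of 8 stretch and hypertrophy markers Nppa, the atrial natriuretic peptide, rose in R403Q-CD with a log2 fold change of 2.73 ± 0.59 (adjusted p 0.0248 in edgeR), with 10996 CPM in replicate 2 and 3826 CPM in the next mouse. It was 1.80 without replicate 2 and 1.28 without replicates 2 and 5, past the threshold in both (adjusted p 0.0158 and 0.0187 in edgeR). In the test of any difference 5 of the 8 passed, Ankrd1, Csrp3, Myh7, Nppa and Nppb. In R403Q-EMPA against R403Q-CD 7 of the 8 had a negative log2 fold change, none past the threshold, and Ankrd1, a stretch-responsive repressor, had the smallest p (-1.27 ± 0.33, adjusted p 0.141 in edgeR, and -0.71 without R403Q-CD replicates 2 and 5).

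Heat shock genes, which respond to handling and ischaemia of tissue, gave 0 of 11 past the threshold in any comparison, with Hspa1a at 1.18 ± 0.39 in R403Q-CD against WT-CD (adjusted p 0.103 in edgeR) and 0.40 without R403Q-CD replicates 2 and 5. Clock genes and glucocorticoid-responsive genes, which follow the time of day and the stress of the animal, gave 0 of 15 and 0 of 10 past the threshold between groups, and 5 and 7 in the test of any difference, with Ciart, Hlf, Tsc22d3 and Angptl4 among them. In R403Q-EMPA against R403Q-CD, Ciart was at -1.38 ± 0.36 and Angptl4 at 1.37 ± 0.36 (adjusted p 0.145 and 0.143 in edgeR). In WT-EMPA against WT-CD they were at -1.49 ± 0.35 and 1.76 ± 0.38 (adjusted p 0.126 each in edgeR), and clock genes had a negative log2 fold change in 10 of 15 and 12 of 15 in these comparisons (median -0.32 and -0.35). Whether the time of collection bears on the members was not tested.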

How the data were processed

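Gene counts and log2 values of 21 LV libraries were used. The deposited counts were made by the authors from frozen LV RNA (poly(A) selection, paired ends) with STAR 2.6.0c on mm10 and featureCounts (Subread 1.6.2) with Ensembl 100, keeping uniquely aligned, nonmitochondrial proper pairs by strand. The deposited log2 values are the authors' DESeq2 1.32.0 variance-stabilized values, used only in the limma alternative. Samples were grouped by genotype and diet from their labels, and each is a separate mouse.

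All 4 groups entered 1 edgeR 4.0.16 quasi-likelihood fit (filterByExpr with a minimum count of 10, TMM, R 4.3.3), with Benjamini-Hochberg adjustment over 17309 genes and a threshold of 0.05. Alternatives were DESeq2 1.42.0, limma 3.58.1, no filter, library size alone, fewer groups, cage as a factor and each mouse left out. Leaving out R403Q-CD replicates 2 and 5 was added after seeing the data. Correlations used 100000 permutations (scipy 1.17.1). The scripts were tested on simulated data: of 200 changed genes, 68.0% were recovered in the interaction, 74.5% in R403Q-EMPA against WT-EMPA and 78.5% to 81.0% in the other 3 comparisons, with 2.86% to 5.81% of calls false. The raised genes had a median fitted log2 fold change of 0.975 to 1.01. The changed genes were drawn at random from all tested genes, whose median within-group SD of log2 CPM was 0.20, against 0.63 for the members. The rates therefore do not give the recovery for the members. Named genes were the 10 members, the 10 genes most like them, and in each list the genes past the threshold or with the smallest p. The members and lists were chosen with earlier results of these data known. Depth limits the lowest genes: Fosb had as few as 4 counts and Egr2 7.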

Additional observations from a re-analysis of the deposited data

Results flagged for a closer look

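Among the 40 sets of 1 member in 1 group, 1 held a mouse that stood apart from the rest of its group by Dixon's gap ratio at the 95% level: Nr4a3 in R403Q-EMPA, with a ratio of 0.887. Replicate 1 had 4.08 CPM and the other 3 mice 5.14 to 5.29 CPM, so that the gap is wide only beside the narrow range of those mice. Chance marks about 1 in 20 such sets. Without replicate 1 the log2 fold change against R403Q-CD stayed within the range of -1.59 to -1.32 given for Nr4a3 with each mouse left out.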

How the results depend on the processing

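The counts of members past the threshold moved between tools. DESeq2 passed 2 in R403Q-CD against WT-CD, 1 in R403Q-EMPA against R403Q-CD, 1 in R403Q-EMPA against WT-EMPA, 1 among the CD cages and 1 among the EMPA cages, where edgeR passed 0. The shares of all genes in DESeq2 were 5.6%, 0.938%, 1.77%, 1.02% and 0.695%, in the same order. Without the filter on low counts edgeR passed 3 among the CD cages, beside 821 of 30799 genes, and 6 among the EMPA cages, beside 517 of 29603. In the test of any difference, where edgeR passed 2, limma passed 0 members, beside 1828 of 17309 genes. Without R403Q-CD replicates 2 and 5 edgeR passed 0 members in that test, beside 1506 of 17159 genes. Without those mice Nr4a3 alone (1) passed in R403Q-EMPA against WT-EMPA, beside 330 of 17159 genes. Correlated pairs fell from 17 to 3 in the EMPA mice alone and to 9 without those mice. With each mouse left out, counts ran from 0 to 2 in R403Q-CD against WT-CD, from 0 to 3 in the test of any difference, from 0 to 2 among the EMPA cages, and from 11 to 18 for the pairs, the lowest without R403Q-CD replicate 6.

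Several directions turned, none of them of a value past the threshold. With library size alone the log2 fold change was 0.0233 for Fos in R403Q-CD against WT-CD, and in R403Q-EMPA against WT-EMPA 0.0172 for Jun and 0.0315 for Atf3. With cage as a factor it was -0.0001 for Fosb and -0.2068 for Nr4a1 in R403Q-CD against WT-CD, and 0.0952 for Nr4a2 in R403Q-EMPA against WT-EMPA. With limma it was -0.0171 for Nr4a1 in R403Q-CD against WT-CD, and -0.1655 for Fos and -0.1509 for Egr1 in WT-EMPA against WT-CD. Without R403Q-CD replicates 2 and 5 it was 0.1539 for Fos in R403Q-CD against WT-CD, 0.4326 against -1.6218 with all mice for Egr2 in R403Q-EMPA against R403Q-CD, and 0.5946 against -1.4584 for Egr2 in the interaction. The cause was not tested.

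With each mouse left out, these also crossed 0. In R403Q-CD against WT-CD, Fos ran from -0.5953 to 0.4381 and Nr4a1 from -0.2904 to 0.2502. In R403Q-EMPA against R403Q-CD, Junb ran from -0.3264 to 0.0394. In WT-EMPA against WT-CD, Fos ran from -0.5764 to 0.5718, Jun from -0.0685 to 0.1105, Egr1 from -0.2970 to 0.2741 and Egr2 from -0.2933 to 0.0989. In R403Q-EMPA against WT-EMPA, Fosb ran from -0.6791 to 0.4533, Jun from -0.1233 to 0.0182, Egr1 from -0.5072 to 0.0641 and Atf3 from -0.1660 to 0.1034.

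Over all genes, calls in R403Q-CD against WT-CD numbered 250 in edgeR, 971 in DESeq2, 98 with 3 groups, 28 with 2 groups, 19 with cage as a factor and 103 without R403Q-CD replicates 2 and 5. Each library is a separate mouse, so that mice were not paired. The labels carry no replicate numbers, and the numbers used here only name the mice. Mice of the same cage were matched instead, in the fits with cage as a factor and the differences within cages.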
